A study of Mus musculus with 6 samples.

Results

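The genes described here are the protocadherins, taken as every protein-coding gene whose symbol starts with Pcdh. There were 69 of them among the 42450 genes listed in total RNA profiles of mouse embryonic stem cells (ESC). The clustered genes made up 57 of the 69, with 14 in the alpha cluster, 22 in the beta cluster and 21 in the gamma cluster, and the other 12 were non-clustered. Chromosome 18 carried 59 of the 69, namely the 3 clusters, Pcdh1 and Pcdh12.

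RNA was compared between the male line E14tg2a.4 with both Srrm2 alleles intact (WT, 3 libraries) and a derivative with a gene-trap truncation of 1 Srrm2 allele (Srrm2+/-, 3 libraries), to see which genes follow a lower dose of this splicing factor of nuclear speckles. Both lines were kept on gelatin with leukemia inhibitory factor (LIF) and then moved to serum-free ESGRO medium with LIF. The labels name 24 or 72 h in this medium without assigning libraries, whereas the methods give both lines the same single growth time, between these, for total RNA. Srrm2+/- is a single gene-trap clone, and the methods give the WT and Srrm2+/- cells different passage ranges, so that genotype, clone and passage cannot be told apart. The 3 replicates of a group were batches of cells frozen separately. Library totals lay between 54151532 and 58499961 estimated counts in WT and between 61023103 and 69933465 in Srrm2+/-, so the Srrm2+/- libraries were all deeper. Srrm2 itself had 91.2, 98.3 and 97.7 CPM (counts scaled for library size) in WT and 62.3, 56.2 and 59.6 in Srrm2+/-, a log2 fold change of -0.69 (SE 0.05, adjusted p = 2.38e-05). Of the pluripotency markers, 7 of 8 were downregulated, against 11.7% of all genes tested. The summed level of the 8 was 3401 to 3518 CPM in WT and 2658 to 2789 CPM in Srrm2+/-, with none of them at 0.

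Protocadherins are cell surface proteins of the cadherin superfamily that bind the same protein on a neighbouring cell. In the alpha and gamma clusters each variable exon has its own promoter and is spliced to constant exons that all genes of the cluster share, whereas beta genes have no shared constant exons. In neurons each cell uses a few of these promoters, chosen with the help of CTCF, cohesin and DNA methylation, and the resulting surface code lets branches of the same neuron avoid each other. The non-clustered genes lie apart from one another, and most belong to the delta-1 and delta-2 groups, which differ in the conserved motifs of their cytoplasmic tails and are known from cell sorting and axon growth in the embryo.

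In Srrm2+/- cells 5 non-clustered protocadherin genes rose by 3.30-fold to 11.6-fold, while 3 of the highest genes of the gamma cluster fell to between 0.741 and 0.791 of their WT level. Of the 5, Pcdh11x and Pcdh17 passed the filter on low counts through the Srrm2+/- libraries alone, so they could be called only as higher. Pcdh7 had 1 WT library and 3 Srrm2+/- libraries past the filter limit, so it too needed the Srrm2+/- libraries to be tested. Of the 69 genes, 35 passed the filter on low counts and were tested. Of these, 6 were upregulated (Pcdh18, Pcdh7, Pcdh1, Pcdh11x, Pcdh17 and Pcdhgc3), 3 were downregulated (Pcdhga8, Pcdhga1 and Pcdhgb5), and 26 did not pass the test. Across all 18905 genes tested, 25.3% were called, 13.6% as higher and 11.7% as lower, and the 9 calls among the 35 protocadherins tested (25.7%) were close to that share. The median log2 fold change of all genes tested was -0.0025. The non-clustered genes gave 5 of 12, all higher, with 9 of the 12 tested, and the clustered genes gave 1 higher and 3 lower of 57, with 26 of the 57 tested. Libraries of the groups did not overlap for 15 of the 69 genes with Srrm2+/- higher (21.7%) and for 6 with Srrm2+/- lower (8.70%). Over all listed genes with at least 1 count the same was true of 15.4% and 14.1%. These RNA profiles come from whole cultures, in which a change in every cell and a change in the number of cells that express a gene cannot be told apart.

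**Figure D1:**
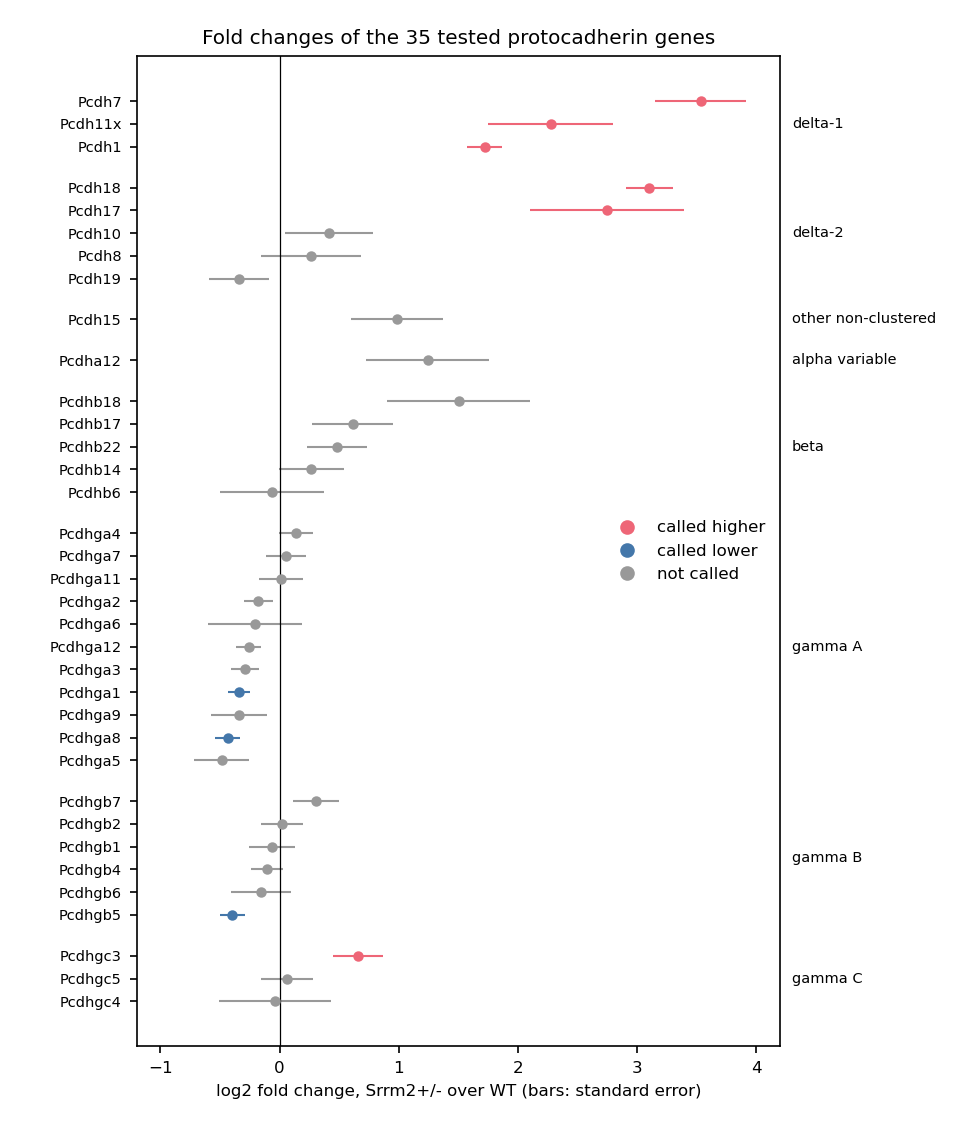
Log2 fold change of Srrm2+/- over WT (x axis) for the 35 protocadherin genes tested, grouped by subgroup, with bars for the standard error and colours for the call at an adjusted p under 0.05. The 5 non-clustered genes called higher sit between 1.72 and 3.53, whereas the gamma A and gamma B genes sit between -0.48 and 0.31.

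Several delta genes held the word CCAAT just before their start. RefSeq promoters (GRCm38.p6) were searched for 9 of the 69 genes, all of them non-clustered. The clustered genes, Pcdh1, Pcdh12 and Pcdh11x were not searched. In the 9 genes the 250 bases before each start were searched on both strands for CCAAT, after the sequences had been read. The word was found in 8 of the 9 genes and in 33.8% of all 32851 promoters of the table. As it was picked from these same sequences, the shares are a description and not a test. The window of Pcdh15, among the 8, lay before an internal RefSeq start, within the annotated gene. In the delta-2 genes it was read as ATTGG on the strand of the gene in each of the 5 (Pcdh8, Pcdh10, Pcdh17, Pcdh18 and Pcdh19), and the nearest match ended between 27 and 63 bases before the start. It was therefore shared by Pcdh18 and Pcdh17, which were upregulated, and by the delta-2 genes that did not pass the test. The sequences of Pcdh18 (chr3:49757326-49757566, minus strand), Pcdh17 (chr14:84443313-84443562, plus strand) and Pcdh10 (chr3:45378148-45378397, plus strand) are given to show this likeness. That of Pcdh7 (chr5:57717831-57717966, plus strand) is given as the only upregulated delta-1 gene searched, and it lacks the word. Each is cut where the annotated gene begins and reads 5′ to 3′ along the gene, with CCAAT or its reverse complement ATTGG in capitals.
Pcdh18: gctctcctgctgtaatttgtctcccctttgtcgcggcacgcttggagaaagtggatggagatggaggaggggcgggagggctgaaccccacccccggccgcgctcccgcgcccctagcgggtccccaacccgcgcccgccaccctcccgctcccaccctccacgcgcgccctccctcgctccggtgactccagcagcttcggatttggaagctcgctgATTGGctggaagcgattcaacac
Pcdh17: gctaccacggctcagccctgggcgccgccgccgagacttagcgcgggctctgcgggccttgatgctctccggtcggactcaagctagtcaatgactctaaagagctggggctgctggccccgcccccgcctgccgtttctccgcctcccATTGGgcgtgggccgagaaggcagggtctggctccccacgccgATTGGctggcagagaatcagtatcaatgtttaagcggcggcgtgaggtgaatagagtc
Pcdh10: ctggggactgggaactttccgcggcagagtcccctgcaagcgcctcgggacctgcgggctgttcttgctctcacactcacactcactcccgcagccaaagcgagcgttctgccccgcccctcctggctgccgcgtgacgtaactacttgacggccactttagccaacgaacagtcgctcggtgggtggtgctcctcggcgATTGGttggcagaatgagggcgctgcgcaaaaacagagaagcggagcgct
Pcdh7: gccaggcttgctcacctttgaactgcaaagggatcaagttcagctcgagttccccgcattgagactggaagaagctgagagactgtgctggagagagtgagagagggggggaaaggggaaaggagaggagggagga

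The windows also differed in their number of CpG, the dinucleotide that DNA methylation acts on in mammals. Over 250 bases there were 23 CpG at Pcdh18, 22 at Pcdh10, 21 at Pcdh17, 18 at Pcdh9, 16 at Pcdh19, 11 at Pcdh8, 7 at Pcdh7, 6 at the internal start of Pcdh15 and 3 at Pcdh20. The median over all promoters was 6, and 27.3% held at least 15. High CpG counts were thus found in Pcdh18 and Pcdh17, called higher, and in Pcdh10 and Pcdh19, not called. TATAAA occurred in the windows of Pcdh8 and Pcdh15 and in 12.4% of all promoters. The CArG box known to be bound by the serum response factor was found in none of the 10 windows searched and in 1.47% of all promoters. GGAATG (12.6% of promoters) and TGANTCA (6.75%) were found in none of these windows either. The windows cover 9 of the 69 genes and are too few to show whether such words are rarer here. A part of the serum response factor was not tested.

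Among the delta-2 genes, Pcdh18 had the largest change in level. Pcdh18 (ENSMUSG00000037892, chr3:49743296-49757325, minus strand, GRCm38) encodes a delta-2 protocadherin whose tail binds the adaptor protein Dab1. It had 32, 27 and 20 counts in WT and 258, 324 and 235 in Srrm2+/-, or 0.472 ± 0.102 CPM against 4.08 ± 0.538 CPM (mean ± SD, 3 libraries each). Every Srrm2+/- library stood far above every WT library. The log2 fold change was 3.10 (SE 0.20, adjusted p = 1.1e-05), an 8.59-fold rise. Pcdh17 (chr14:84443563-84539002, plus strand), which takes part in the assembly of synapses in the corticobasal circuits, had 0, 4 and 4 counts in WT and 20, 30 and 17 in Srrm2+/-. The groups did not overlap, at 0.048 ± 0.0416 CPM against 0.333 ± 0.0885 CPM (mean ± SD, 3 libraries each). Its log2 fold change of 2.75 (SE 0.65) passed the test at an adjusted p of 0.014, which became 0.0574 without Srrm2+/- replicate 2. Pcdh17 passed the filter on low counts through the Srrm2+/- libraries alone.

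The other 3 delta-2 genes did not pass the test. Pcdh19 (chrX:133582860-133688987, minus strand), known from an X-linked epilepsy, had 47, 31 and 35 counts in WT and 37, 38 and 32 in Srrm2+/-, giving a log2 fold change of -0.34 (SE 0.25, adjusted p = 0.377). On the CPM scale the Srrm2+/- libraries were close together, and WT had 1 library within their range and the others above it. Pcdh10 (chr3:45378398-45435623, plus strand), whose tail recruits the WAVE complex to cell contacts, had 10, 16 and 9 counts against 23, 16 and 17, with a log2 fold change of 0.42 (SE 0.37, adjusted p = 0.465). Pcdh8 (chr14:79766775-79771312, minus strand), also known as paraxial protocadherin for its part in the mesoderm of the embryo, had 6, 8 and 11 counts against 12, 11 and 13, with a log2 fold change of 0.26 (SE 0.42, adjusted p = 0.705). The groups overlapped for Pcdh8 and Pcdh10 on the CPM scale, and with counts this low a difference as small as these was not detectable.

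All 4 delta-1 genes were higher in every Srrm2+/- library than in any WT library, and 3 of them were tested and called. The former held for 15.4% of all listed genes with at least 1 count, and 13.6% of all genes tested were called higher. Pcdh7 (ENSMUSG00000029108, chr5:57717967-58133230, plus strand), the mammalian counterpart of a protocadherin that holds the neural fold of the frog together, had 13, 4 and 4 counts in WT and 94, 101 and 100 in Srrm2+/-. WT replicate 1 was above the other WT libraries and far below the Srrm2+/- libraries. The means were 0.126 ± 0.0938 CPM and 1.48 ± 0.132 CPM (mean ± SD, 3 libraries each), and the log2 fold change was 3.53 (SE 0.38, adjusted p = 0.000236). Of its annotated sequence, 20.7% was shared with the overlapping transcript 4932441J04Rik, with which its reads can be confused. Pcdh1 (ENSMUSG00000051375, chr18:38185914-38212053, minus strand), an adhesion protein of the airway epithelium, had 54, 52 and 53 counts in WT and 228, 199 and 202 in Srrm2+/-. Both groups were tight, at 0.954 ± 0.0479 CPM and 3.15 ± 0.230 CPM (mean ± SD, 3 libraries each), and the log2 fold change was 1.72 (SE 0.15, adjusted p = 5.7e-05), a 3.30-fold rise.

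Pcdh11x (chrX:120290259-120910619, plus strand), an X-linked gene best known from the brain, had 9, 2 and 8 counts in WT and 58, 28 and 27 in Srrm2+/-. The groups did not overlap, but Srrm2+/- replicate 1 stood well above the other Srrm2+/- libraries. The log2 fold change was 2.28 (SE 0.53, adjusted p = 0.0127), and the adjusted p was 0.0589 without that library. Like Pcdh17, it passed the filter through the Srrm2+/- libraries alone. Pcdh9 (chr14:93013410-93890679, minus strand), the delta-1 gene that was not tested, had 0, 3 and 2 counts in WT and 13, 9 and 8 in Srrm2+/-, again without overlap.

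The 3 non-clustered genes outside the delta groups were low. Pcdh15 (chr10:73099342-74649737, plus strand), a part of the tip link that opens the transduction channel of hair cells, had 14, 8 and 8 counts in WT and 24, 31 and 17 in Srrm2+/-. The groups did not overlap, but the log2 fold change of 0.99 (SE 0.39) did not pass the test (adjusted p = 0.0987). Pcdh12, the protocadherin of endothelial junctions, had 0 to 1 count in WT and 0 to 2 in Srrm2+/-, and Pcdh20 had 0 in every WT library and 0, 1 and 5 counts in Srrm2+/-. Neither was tested.

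**Figure D2:**
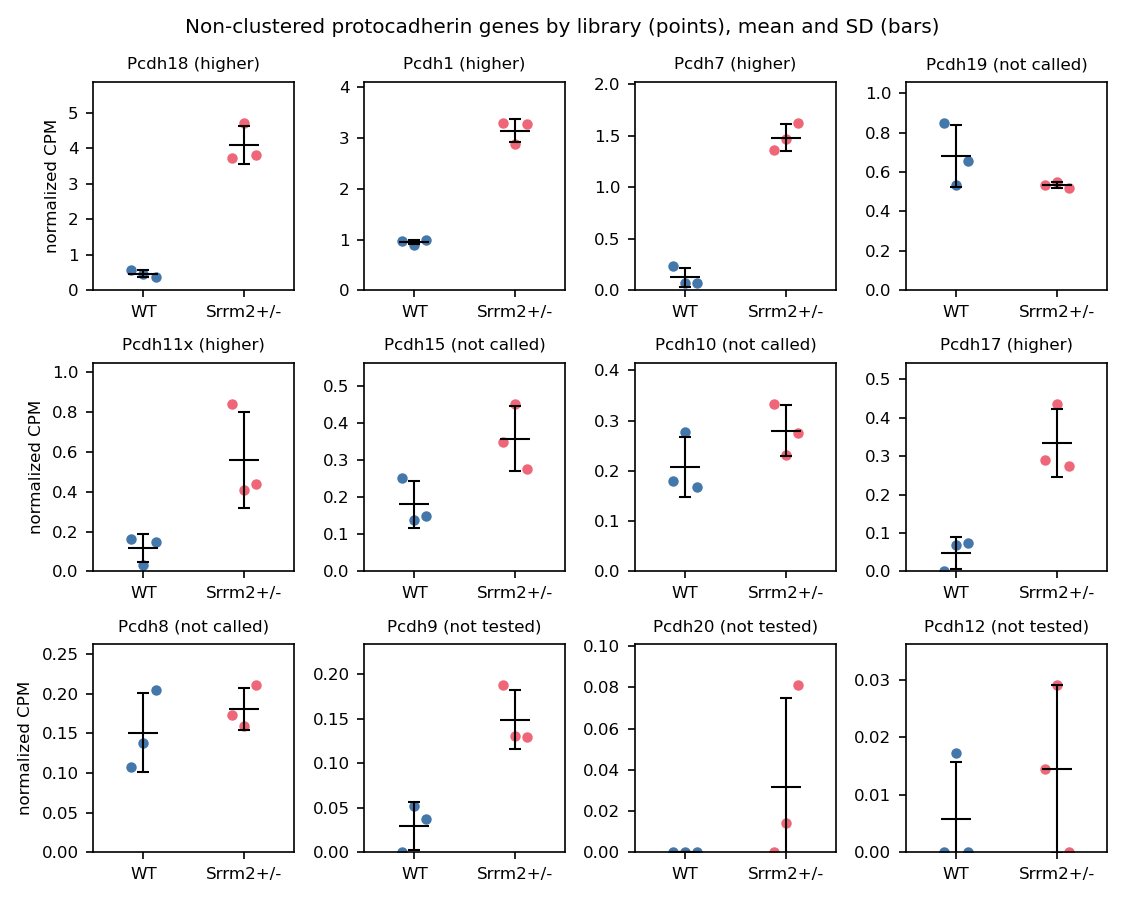
Normalized CPM of the 12 non-clustered protocadherin genes in each library (points, 3 WT and 3 Srrm2+/- libraries per gene), with the mean (long bar) and SD (whiskers) and with the call in each title. Each panel has its own linear axis from 0, and for Pcdh18 the Srrm2+/- points lie near 4 CPM while the WT points lie under 1 CPM.

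Summed over the 12 genes, the non-clustered protocadherins had 3.33, 2.70 and 2.88 CPM in WT and 11.1, 11.5 and 10.9 CPM in Srrm2+/-. Pcdh18, Pcdh1 and Pcdh7 together made up 52.2 ± 1.95% of these counts in WT and 78.1 ± 2.27% in Srrm2+/- (mean ± SD, 3 libraries each). The delta-1 sum was 4.36 times as high in Srrm2+/- and the delta-2 sum 3.47 times as high, as ratios of the group means. Levels per length (CPM per kb of the longest annotated transcript) moved Pcdh18 from rank 21 to rank 8 among the 69 genes, Pcdh1 from 19 to 10 and Pcdh7 from 44 to 21.

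Some markers of differentiated cells changed as well, in both directions, and their part in the result was not tested. Over all genes tested 13.6% were called higher and 11.7% lower. Of the 12 neural markers, 4 were upregulated (Nes, Gap43, Snap25 and Neurod1) and 2 were downregulated (Tubb3 and Pax6), and the summed level was 120 to 122 CPM in WT and 165 to 175 CPM in Srrm2+/-. Nes alone carried the higher sum, and the other 11 neural markers summed to 106 to 111 CPM in WT and 83.9 to 90.0 CPM in Srrm2+/-. The intermediate filament gene Nes had a log2 fold change of 2.67 (SE 0.09, adjusted p = 4.21e-07). Of the 9 primitive streak and mesoderm markers, T and Eomes were upregulated, and Msgn1 was at 0 in all WT libraries. The 9 summed to 5.06 to 6.56 CPM in WT and 7.73 to 8.62 CPM in Srrm2+/-. T carried most of the higher sum, with 0.886 ± 0.267 CPM in WT and 3.29 ± 0.531 CPM in Srrm2+/-. Myl7, the highest of the 9 in WT, was lower without passing the test (3.25 against 2.65 mean CPM, adjusted p = 0.197). Of the 7 trophectoderm markers, the keratin genes Krt8 and Krt18 were upregulated and Tfap2c was downregulated, with a sum of 68.1 to 72.5 CPM in WT and 268 to 298 CPM in Srrm2+/-, while Cdx2 was at 0 in all WT libraries. The keratin genes carried the higher sum, and the other 5 trophectoderm markers summed to 51.3 to 52.4 CPM in WT and 31.3 to 34.4 CPM in Srrm2+/-. Of the 7 fibroblast markers, the collagen genes Col1a2, Col3a1 and Col1a1 were upregulated, and Dcn was at 0 in all WT libraries. The 7 summed to 3.36 to 3.63 CPM in WT and 6.53 to 9.89 CPM in Srrm2+/-. Thy1, the highest of the 7 in WT, had a lower mean in Srrm2+/- (1.93 against 1.19 CPM). Its groups overlapped and it did not pass the test (adjusted p = 0.0939). Of the 7 primitive endoderm markers only Dab2 was called, as higher, and the sums overlapped, at 2.39 to 2.70 CPM and 2.56 to 3.64 CPM.

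The gamma cluster was the main protocadherin cluster of these cells. It held 91.9 ± 1.11% of all protocadherin counts in WT and 79.2 ± 1.24% in Srrm2+/- (mean ± SD, 3 libraries each, counts not corrected for length). The summed gamma counts were 69.8, 76.5 and 75.1 CPM in WT and 66.3, 62.9 and 61.1 CPM in Srrm2+/-, a ratio of the means of 0.859. The groups did not overlap, although the lowest WT library and the highest Srrm2+/- library were close. A sum over the cluster does not depend on how the reads of the constant exons were divided among its genes.

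On the scale of CPM per kb, the order of the 7 highest genes was the same in both groups: Pcdhga8, Pcdhga1, Pcdhgb5, Pcdhga12, Pcdhgb4, Pcdhga3 and Pcdhga2. Pcdhga8 reached 3.02 CPM per kb in WT and 2.24 in Srrm2+/-, and Pcdhga2 reached 0.925 and 0.818. The 3 downregulated genes were the 3 highest of this order. Pcdhga8 (ENSMUSG00000103897) had 12.3, 14.6 and 16.0 CPM in WT and 11.5, 9.80 and 10.4 CPM in Srrm2+/-, giving a log2 fold change of -0.43 (SE 0.10, adjusted p = 0.0154). Pcdhga1 (ENSMUSG00000103144) had 8.52, 10.5 and 9.62 CPM against 7.41, 7.48 and 7.80 CPM, with a log2 fold change of -0.34 (SE 0.09, adjusted p = 0.0285). The Srrm2+/- libraries of Pcdhga1 were closer together than its WT libraries. Pcdhgb5 (ENSMUSG00000103749) had 8.65, 9.64 and 8.68 CPM against 7.73, 6.42 and 6.34 CPM, with a log2 fold change of -0.40 (SE 0.10, adjusted p = 0.0217). In each of the 3 genes every Srrm2+/- library was lower than every WT library. None of the 3 calls held in every fit that left out a library: Pcdhga1 was lost in 5 of 6 such fits, Pcdhga8 in 4 and Pcdhgb5 in 3.

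Of the 17 gamma A and gamma B genes tested, 12 had a log2 fold change below 0, over a range from -0.48 (Pcdhga5) to 0.31 (Pcdhgb7). The median was -0.26 for the gamma A genes and -0.09 for the gamma B genes, against -0.0025 over all genes tested. Pcdhga12 and Pcdhga3 also had no overlap between groups, with 7.03 ± 0.568 CPM against 5.88 ± 0.465 CPM and 4.99 ± 0.623 CPM against 4.09 ± 0.156 CPM (mean ± SD, 3 libraries each), but did not pass the test (adjusted p = 0.105 and 0.118). Pcdhgb4 had 5.24 ± 0.183 CPM in WT and 4.86 ± 0.837 CPM in Srrm2+/-, with overlapping groups. The 4 genes with the highest CPM had a summed level of 39.9 ± 3.25 CPM in WT and 30.9 ± 1.91 CPM in Srrm2+/-, and the other 17 genes of the cluster had 33.9 ± 0.346 CPM and 32.6 ± 1.27 CPM. Both sums were lower in every Srrm2+/- library than in any WT library.

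The gamma C genes differ from the A and B genes in that they are not chosen at random in neurons, and 1 of the 3 was called. Pcdhgc3 (ENSMUSG00000102918), the member that acts in dendrite branching, had 1.82, 1.33 and 2.41 CPM in WT and 3.14, 2.70 and 2.93 CPM in Srrm2+/-. The WT libraries were widely spread, and all lay below the Srrm2+/- libraries. The log2 fold change of 0.66 (SE 0.21) passed the test narrowly (adjusted p = 0.048) and was lost in 5 of 6 fits that left out a library. Of its sequence, 33.8% was its own and 27.8% was shared with the antisense gene BC037039. Pcdhgc4, which neurons need to survive, had a log2 fold change of -0.04 (SE 0.47), and Pcdhgc5 had 0.06 (SE 0.22), with overlapping groups in each.

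**Figure D3:**
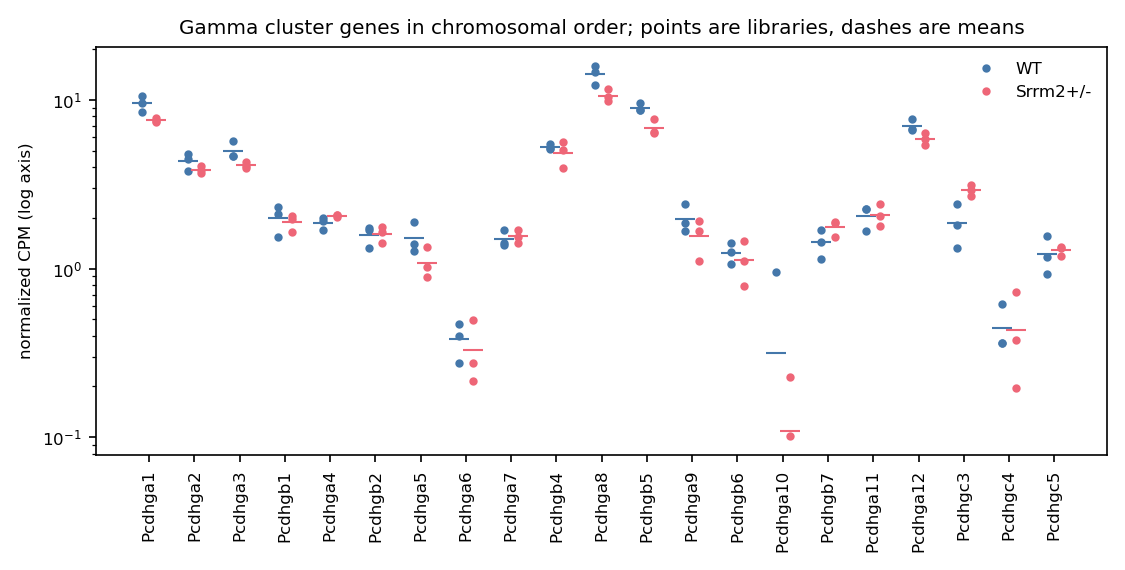
Normalized CPM (log axis) of the 21 gamma cluster genes in chromosomal order, with points for libraries and dashes for the mean of the 3 libraries of a group. Points at 0 (Pcdhga10) cannot be drawn on this axis. Pcdhga8, Pcdhga1 and Pcdhgb5 have all Srrm2+/- points under the WT points, and Pcdhgc3 has them above.

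The alpha and beta clusters were much lower, and their sums were higher in Srrm2+/-. The alpha cluster had 40, 42 and 45 counts in WT and 89, 116 and 87 in Srrm2+/-, or 0.763 ± 0.0673 CPM against 1.46 ± 0.203 CPM (mean ± SD, 3 libraries each), a ratio of 1.91. The beta cluster had 3.10, 2.40 and 2.88 CPM in WT and 3.54, 4.31 and 4.10 CPM in Srrm2+/-, a ratio of 1.43. Neither sum overlapped between groups. A sum over genes is given here as a description, with no test.

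Single alpha genes were too low to follow. All 14 had under 30 counts in every library, and Pcdha12 was the only one tested, with 3, 6 and 11 counts in WT and 19, 14 and 24 in Srrm2+/- and a log2 fold change of 1.24 (SE 0.51, adjusted p = 0.116). The symbol Pcdha11 was carried by 2 identifiers. Of these, ENSMUSG00000007440 had 0 counts in every WT library and 4, 19 and 15 in Srrm2+/-. The Srrm2+/- mean was 3.56 times a floor of 3 counts per WT library, with Srrm2+/- replicate 1 close to that floor. ENSMUSG00000007440 was not tested at the main filter, and was called higher with DESeq2 and with a filter of at least 1 count. It was also called higher without WT replicate 1, 2 or 3 and without Srrm2+/- replicate 1. With 0 counts in WT it could be called only as higher. Pcdha2 also was at 0 in WT, with 5, 4 and 4 counts in Srrm2+/-. Pcdha4 went the other way, with 3, 8 and 5 counts in WT and 2, 0 and 3 in Srrm2+/-. The C-type genes Pcdhac1 and Pcdhac2, which have their own promoters at the end of the cluster, had 3 to 7 and 0 to 8 counts in WT and 6 to 18 and 8 to 22 in Srrm2+/-.

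Of the 22 beta genes 5 were tested, and none was called. Pcdhb22 and Pcdhb14 were the highest, with 51, 30 and 49 counts in WT and 74, 82 and 63 in Srrm2+/- for Pcdhb22, and 51, 30 and 41 against 53, 76 and 48 for Pcdhb14. Their log2 fold changes were 0.48 (SE 0.25, adjusted p = 0.204) and 0.27 (SE 0.27, adjusted p = 0.536). Groups were apart for Pcdhb22 and overlapped for Pcdhb14. Pcdhb18 had 2, 5 and 10 counts in WT and 18, 12 and 28 in Srrm2+/- without passing the test (2.84-fold, adjusted p = 0.102). Pcdhb17 and Pcdhb6 had log2 fold changes of 0.62 (SE 0.34, adjusted p = 0.232) and -0.06 (SE 0.44, adjusted p = 0.940). Pcdhb10 was at 0 in all 6 libraries, which allows up to 3 counts in each. Of the beta genes not tested, Pcdhb5 (3, 4 and 1 counts against 12, 14 and 10) and Pcdhb19 (6, 7 and 7 against 17, 10 and 21) had no overlap between groups, both with Srrm2+/- higher.

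In all, 34 of the 69 genes were not tested. Their counts reached 22 at most in any library, except for Pcdhga10, which had 0, 55 and 0 counts in WT and 7, 0 and 14 in Srrm2+/-. Only 0.617% of the annotated sequence of Pcdhga10 was its own, and 54.9% was shared with the predicted gene Gm26672, so its counts cannot be assigned to it with confidence. Of the other genes not tested, 5 had higher and 1 had lower levels in every Srrm2+/- library than in any WT library. The shares over all listed genes with at least 1 count, tested or not, were 15.4% higher and 14.1% lower.

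Over the whole family, the 69 genes together had 80.3 ± 2.96 CPM in WT and 80.0 ± 2.40 CPM in Srrm2+/- (mean ± SD, 3 libraries each), with overlapping groups. Within this total the non-clustered genes made up 3.71 ± 0.554% in WT and 13.9 ± 0.402% in Srrm2+/-. Pcdhgc3 made up 2.52 ± 0.737% and 4.61 ± 0.278% of the gamma cluster. The similar totals thus held different shares of the subgroups, without overlap between groups in either share.

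**Figure D4:**
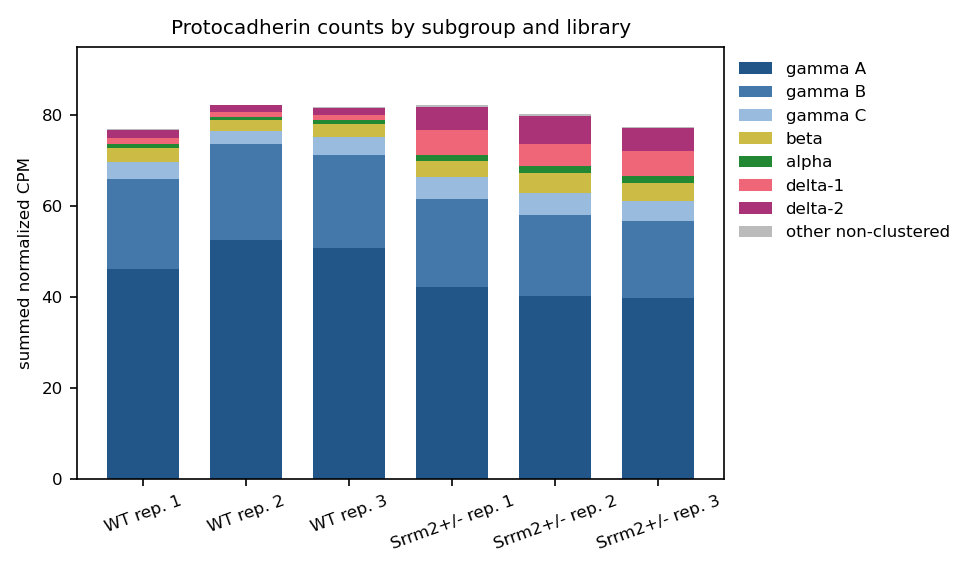
Summed normalized CPM of the protocadherin genes in each of the 6 libraries (bars), divided by subgroup (colours). The bars have similar heights, between 76.9 and 82.3 CPM, and the delta-1 and delta-2 parts are thicker in the 3 Srrm2+/- libraries.

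How far a level can be read for a single gene depends on its own sequence. Words of 31 bases were counted in the annotated transcripts, and a word was a gene's own when no other gene held it on either strand. The median share of own words was 100% for the delta-1 genes and 99.6% for the delta-2 genes. It was 88.2% for the beta genes, 52.6% for gamma A, 43.4% for gamma B, 61.7% for gamma C and 33.7% for the variable alpha genes. The counts of alpha and gamma genes are therefore estimates that divide the reads of shared exons, and the values of single gamma genes are less certain than those of the non-clustered genes. Adding the overlapping predicted genes and Pcdhgb8 to the sums, a choice made after seeing the data, gave log2 ratios of 0.97 for alpha, 0.45 for beta and -0.21 for gamma, in place of 0.94, 0.51 and -0.22.

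**Figure D5:**
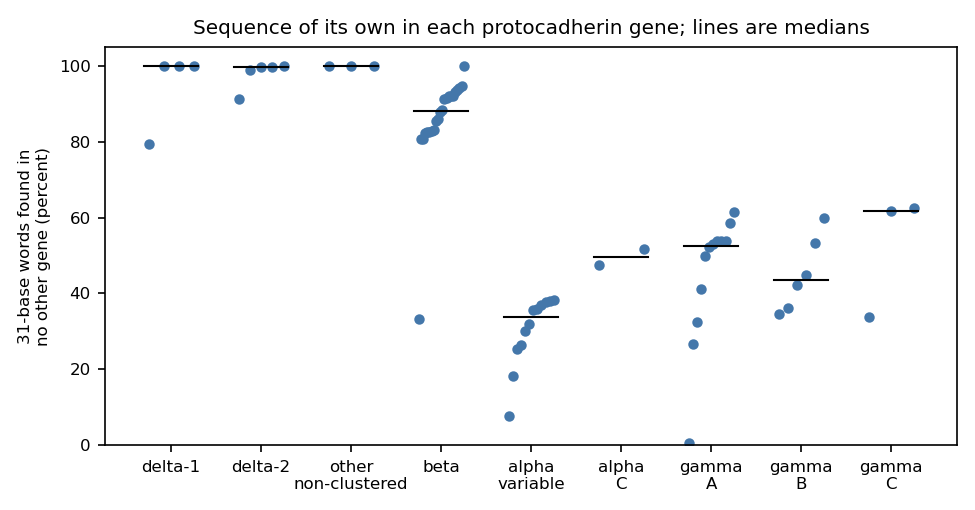
Percent of 31-base words found in no other gene (y axis) for each of the 69 protocadherin genes (points) by subgroup, with lines for the medians. The delta genes lie between 79.3% and 100%, and the alpha and gamma genes lie under 63%.

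Genes that act on protocadherins were read from lists of regulators, partners and related cadherins. Of the 17 regulators of clustered protocadherin choice, 3 were upregulated and 4 were downregulated, with a median log2 fold change of -0.08. Over all genes tested 13.6% were called higher and 11.7% lower, with a median of -0.0025. The de novo DNA methyltransferases Dnmt3b and Dnmt3a rose, from 124, 113 and 129 to 221, 214 and 275 CPM for Dnmt3b (log2 fold change 0.95, SE 0.09, adjusted p = 0.00013) and from 52.4, 48.0 and 48.5 to 85.4, 85.6 and 96.6 CPM for Dnmt3a (0.85, SE 0.06, adjusted p = 1.95e-05). Every Srrm2+/- library was above every WT library for both. The cohesin subunit gene Stag2 rose by 0.31 on the log2 scale (SE 0.05, adjusted p = 0.00198). The cohesin gene Smc1a, the CTCF partner Wiz, the histone methyltransferase gene Setdb1 and the repressor gene Rest fell, with log2 fold changes between -0.23 and -0.14. Ctcf (-0.0011, SE 0.04, adjusted p = 0.989), Rad21 (0.07, SE 0.06, adjusted p = 0.478) and Smchd1 (0.02, SE 0.04, adjusted p = 0.721) did not pass the test.

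Of the 20 processing enzymes and cytoplasmic partners, 3 were upregulated and 1 was downregulated, with a median of 0.04. The called share over all genes tested was 25.3%. The kinase genes Ptk2b and Ptk2, whose products bind the tails of clustered protocadherins, had log2 fold changes of 0.76 (SE 0.10, adjusted p = 0.000744) and 0.45 (SE 0.07, adjusted p = 0.00188). Cyfip2, a subunit of the WAVE complex, had 0.60 (SE 0.09, adjusted p = 0.00157), and the Wnt receptor gene Fzd5 had -0.41 (SE 0.04, adjusted p = 0.000137). Adam10, which encodes a protease that sheds protocadherins from the cell surface, did not pass the test, with a log2 fold change of -0.14 (SE 0.09, adjusted p = 0.319).

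Of 13 other large cadherins, 11 were tested, with 3 upregulated and 1 downregulated, against a called share of 25.3% over all genes tested. Fat4 and Dchs1, which encode a receptor and ligand pair of planar polarity, had 1 to 3 and 2 to 7 counts in WT and 16 to 20 and 19 to 21 in Srrm2+/-, with log2 fold changes of 3.03 (SE 0.54, adjusted p = 0.00353) and 2.13 (SE 0.52, adjusted p = 0.0158). Both passed the filter through the Srrm2+/- libraries alone. Fat1 rose from 110, 116 and 127 CPM to 189, 174 and 184 CPM (log2 fold change 0.63, SE 0.06, adjusted p = 7.6e-05), while Fat2 fell from 0.829, 0.761 and 0.877 CPM to 0.275, 0.174 and 0.130 CPM (log2 fold change -2.07, SE 0.32, adjusted p = 0.00164). For each of these 4 genes the libraries of the groups were apart.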

How the data were processed

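Total RNA was measured in 3 WT and 3 Srrm2+/- libraries of mouse ESC, and titles of the samples gave the groups. Reads had been pseudo-aligned by the authors with kallisto 0.46.1 to GENCODE M24 transcripts, and the values they deposited are estimated counts of reads per gene without normalization. The kit is stranded. Whether kallisto used strand is not given in the sources used here. Where transcripts share sequence, kallisto splits reads between them, so genes with shared exons, overlapping genes and antisense genes can exchange counts. Spike-in RNA had been added to the samples and was not used here.

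Estimated counts were rounded. Symbols, types and coordinates came from GENCODE M21 (GRCm38), in which 42156 identifiers matched. Genes past filterByExpr (minimum count 10, minimum total 15, or 0.167 CPM in at least 3 libraries) were fitted with edgeR 4.0.16 in R 4.3.3 (TMM, glmQLFit, glmQLFTest, two-sided, with genotype alone in the design). Adjusted p-values are from the Benjamini-Hochberg method over all 18905 genes, and calls were made below 0.05. The SE was the log2 fold change divided by the root of F. CPM used library sizes scaled by TMM. Library totals of 54151532 to 69933465 set the counting precision. The p-values measure the spread between 3 frozen batches of 1 line per genotype.

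The genes named were every tested non-clustered member and, in each clustered subgroup, those called, the 4 highest by CPM and the extremes of log2 fold change, with the called and defining genes of each list. Members outside this rule that are named were chosen after their values were seen. Members and lists were chosen with earlier results of these data known. As alternatives, normalization by RLE or upper quartile, DESeq2 1.42.0, voom of limma 3.58.1, other filters and call rules, leaving short RNA, rRNA and mitochondrial genes out, a replicate block, each library left out in turn and 1 sum per cluster were run.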

Additional observations from a re-analysis of the deposited data

How the results depend on the processing

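The upregulation of Pcdh18, Pcdh1 and Pcdh7 kept its call under each alternative in which they were fitted, with log2 fold changes of 2.97 to 3.27, 1.68 to 1.78 and 3.24 to 4.33. The log2 ratios of the summed clusters stayed between 0.82 and 1.02 for alpha, 0.42 and 0.59 for beta and -0.26 and -0.19 for gamma. Leaving out 1 library gave 4 to 9 protocadherins called, 4 to 7 of them higher and 0 to 3 lower, with 4 to 5 of the non-clustered genes. The genes called higher were not always the same. Pcdha11 (ENSMUSG00000007440) entered without any 1 WT library or Srrm2+/- replicate 1, and Pcdhgc3 was kept only without WT replicate 3. No protocadherin was called lower without WT replicate 2, Srrm2+/- replicate 2 or Srrm2+/- replicate 3, and the cause was not tested. An adjusted p under 0.01 left 3 protocadherins, all 3 non-clustered and higher, and 0 lower. A log2 fold change of at least 1 in either direction left 5, with 0 lower. A filter of at least 1 CPM left 3 non-clustered genes called, 1 of the other large cadherins and 0 primitive endoderm markers, as it removed low genes before the test. Called regulators numbered 3 to 6 and called primitive streak and mesoderm markers 1 to 2 when 1 library was left out, and the latter were 1 with DESeq2, with at least 1 count and with at least 1 CPM. Pcdhb6 had a log2 fold change of 0.0015 with limma voom, against -0.06.

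Same-numbered libraries did not deviate together (correlations of -0.0285, -0.0337 and -0.03 for numbers 1, 2 and 3), and replicate numbers were not taken to mark pairs. Under the replicate block the 9 protocadherins called were the same genes, 4166 genes were called in place of 4781, 1 primitive streak and mesoderm marker was called in place of 2, and 5 regulators of clustered protocadherin choice in place of 7.

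Without 1 library, log2 fold changes near 0 changed sign, none of them called. Pcdhb6 lay between -0.35 and 0.19, Pcdhga6 between -0.62 and 0.027, Pcdhga7 between -0.013 and 0.15, Pcdhga11 between -0.12 and 0.11, Pcdhgb1 between -0.22 and 0.067, Pcdhgb2 between -0.089 and 0.11, Pcdhgb4 between -0.22 and 0.021, Pcdhgb6 between -0.39 and 0.049, Pcdhgc4 between -0.63 and 0.30 and Pcdhgc5 between -0.094 and 0.28. Depth limits the alpha, beta and low non-clustered genes, most of which had under 30 counts in every library. Floors cover counting error only, whereas the SE also includes the spread between libraries.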
